A study of Mus musculus with 9 samples.

Results

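TGF-β is the cytokine most often tied to scarring of the kidney, and 9 genes of its pathway were followed here in the renal cortex of diabetic mice with and without rosiglitazone. They comprised the 3 ligand genes Tgfb1, Tgfb2 and Tgfb3, the receptor genes Tgfbr1 and Tgfbr2, the signal transducer Smad3, the inhibitor Smad7, and a pair of profibrotic genes, Ctgf and Thbs1. They were listed by gene symbol, with earlier results of these data known, and are 9 of 21950 genes in the mRNA data. All 9 were among the 14537 genes with a mean of at least 0.1 FPKM (FPKM being fragments scaled to the length of the transcript and to all mapped fragments of a library) over the 9 libraries, which were the genes tested.

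The control group held 3 mice heterozygous for the db mutation of the leptin receptor gene Lepr (db/m, non-diabetic). Control mice were given no rosiglitazone, and the methods of the study do not say whether they were given vehicle. Handling may thus also differ in dbdb vs. control. The dbdb group held 3 homozygous db/db mice with type 2 diabetes that were given vehicle. The dbR group held 3 db/db mice given 20 mg/kg of rosiglitazone per day by gavage for 8 weeks, from 7 to 15 weeks of age. Rosiglitazone is an agonist of the nuclear receptor PPARγ and is used to lower blood glucose. All mice were males of the C57BL/KsJ background (BKS.Cg-Dock7m+/+Leprdb/Nju) aged 15 weeks at sampling, and each library came from the cortex of 1 mouse. Every mouse, controls included, thus carried at least 1 db allele. As db/db mice lack leptin signalling in the whole body, obesity and diabetes cannot be told apart in this model. The dbdb group is part of both the dbdb vs. control and the dbR vs. dbdb comparison, so that the 2 comparisons share 3 libraries and are not independent.

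The TGF-β ligands are secreted in a latent form, bound to a propeptide and to latent TGF-β binding proteins in the extracellular matrix, and have to be released before they can signal. Thrombospondin, the product of Thbs1, is one of the proteins able to release them, and integrins are others. A free ligand binds the type II receptor (Tgfbr2), which phosphorylates the type I receptor (Tgfbr1), and that receptor in turn phosphorylates Smad2 and Smad3, which enter the nucleus with Smad4. Smad7 is induced by the pathway and blocks the type I receptor, and Ctgf (connective tissue growth factor, also named Ccn2) is a matricellular target of TGF-β and of YAP and TEAD. In diabetic kidney disease the pathway is known for its role in mesangial matrix expansion and tubulointerstitial fibrosis.

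The libraries were alike in depth. Between 27.0 and 32.8 M fragments per library were estimated from the step size of FPKM values, and mitochondrial transcripts made up 26.9% to 32.8% of the summed mRNA FPKM. The tissue label was borne out by proximal tubule markers, the cells that fill the cortex, whose 6 genes summed to between 2494 and 3160 FPKM in every library. The lowest correlation between any 2 libraries was 0.971. The first control library stood apart in some genes of smooth muscle. Acta2 was at 16.2 FPKM against 5.71 to 8.63 in the other libraries, Myh11 at 5.62 against 1.92 to 3.41 and Cnn1 at 1.09 against 0.111 to 0.422. It was also highest in Tagln and in the platelet genes Pf4, at 2.26 against 0.108 to 1.06, Ppbp and Gp9. Smtn, the most abundant smooth muscle marker, was not raised there, at 19.7 FPKM against 20.5 and 19.3 in the other controls. The platelet gene Itga2b, at 0.756, was near the third control library (0.739), and Gp1bb was at 2.06e-08. Without the first control library the dbdb vs. control differences were −0.52 for Tgfb1, −0.29 for Tgfbr2, 0.86 for Ctgf and 0.89 for Thbs1, all still called (adjusted p = 0.0149, 0.0108, 0.00983 and 0.00113). Lepr was listed at 1.19, 1.05 and 1.23 FPKM in control mice, 0.652, 0.331 and 0.304 in dbdb mice and 0.512, 0.390 and 0.335 in dbR mice. The db mutation alters splicing rather than removing the gene, so that this gene sum is only an indirect check of the genotype. In the limma fit, 3840 of 14537 genes (26.4%) had an adjusted p under 0.05 in dbdb vs. control, 1899 upregulated (13.1%) and 1941 downregulated (13.4%). In dbR vs. dbdb 108 genes (0.743%) passed, and in dbR vs. control 3497 genes (24.1%), of which 12.3% of the tested genes were upregulated and 11.8% downregulated. FPKM are shares of a total, and this matters for directions. With mitochondrial transcripts left out of the total, the median log2 fold change of all genes moved by 0.15 in dbdb vs. control, −0.06 in dbR vs. dbdb and 0.09 in dbR vs. control. The share of upregulated genes among those called then went from 49.5% to 78.3% in dbdb vs. control, from 75.9% to 48.6% in dbR vs. dbdb and from 51.1% to 70.5% in dbR vs. control.

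In dbdb vs. control 4 of the 9 genes were called, against 26.4% of all genes tested. Ctgf and Thbs1 were upregulated 1.94-fold and 1.82-fold, whereas the ligand gene Tgfb1 and the receptor gene Tgfbr2 were downregulated to 0.701 and 0.814 of the control level. In 5 of the 9 genes, these 4 and Tgfbr1, the FPKM of the 3 dbdb libraries did not overlap those of the 3 control libraries, which held for 42.4% of all genes. In dbR vs. dbdb none of the 9 genes was called (limma, adjusted p under 0.05), against 0.743% of all genes. In that comparison 6 genes had an unadjusted p under 0.05 (17.5% of all genes did) and 4 did not overlap between groups (22.7% of all genes). In dbR vs. control Thbs1 was upregulated and Tgfbr2 downregulated, 2 of 9 genes against 24.1% of all genes, and 5 genes did not overlap, against 41.9% of all genes. The median log2 fold change of the 9 genes was −0.12 in dbdb vs. control, −0.05 in dbR vs. dbdb and 0.22 in dbR vs. control, and that of all tested genes was −0.003, −0.002 and −0.001. In bulk cortex fewer cells of a type and less RNA per cell cannot be told apart, and this holds for every value given here.

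**Figure D1:**
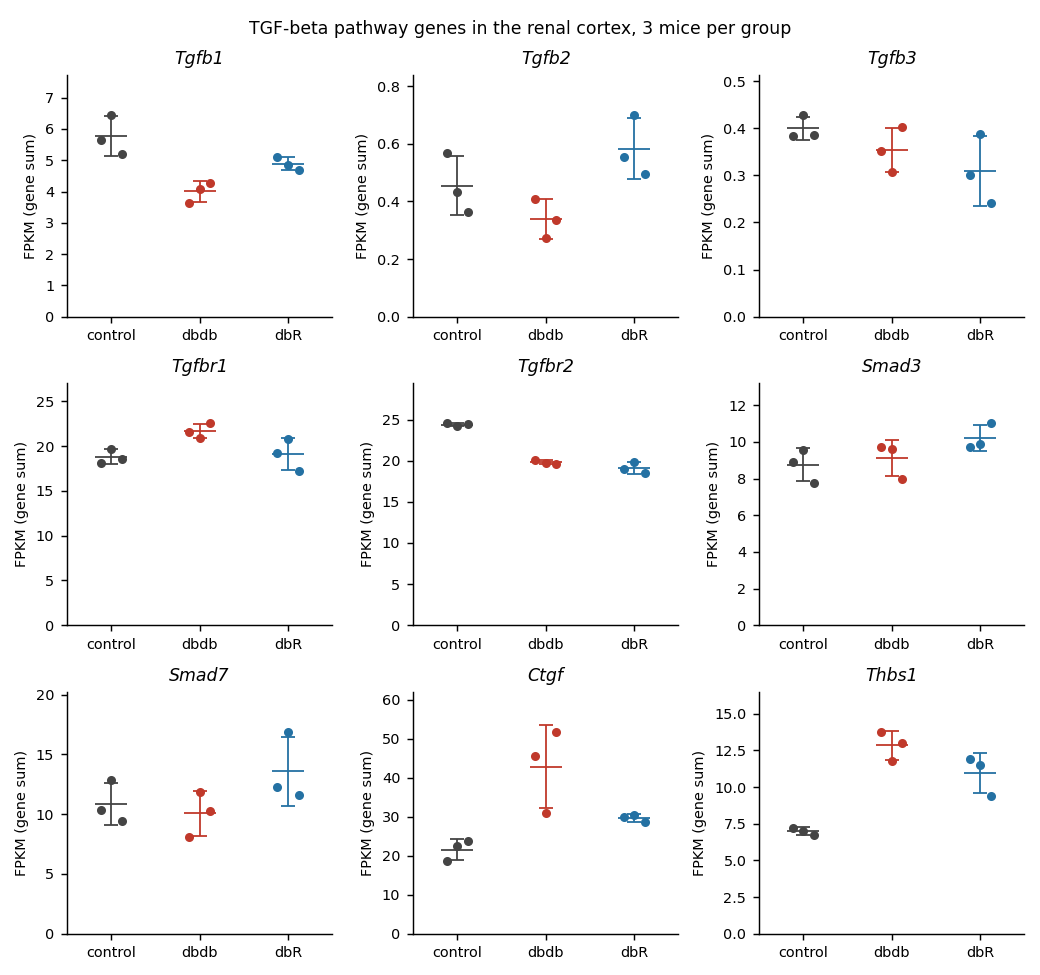
FPKM summed per gene (vertical axis, each panel with its own scale from 0) of the 9 pathway genes in the control, dbdb and dbR groups. Points are single mice, horizontal bars the mean and whiskers the SD (n = 3). Ctgf and Thbs1 sit above control in every dbdb mouse, Tgfb1 and Tgfbr2 below it, and Tgfb2 and Tgfb3 stay under 1 FPKM throughout.

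Tgfb1 supplied most of the ligand transcript. Its share of the summed FPKM of the 3 ligand genes averaged 87.1% in control mice, 85.2% in dbdb mice and 84.6% in dbR mice. Tgfb1 (ENSMUSG00000002603, GRCm38 chromosome 7, 25687002 to 25705077, plus strand) was measured at 5.65, 6.45 and 5.20 FPKM in control mice, 3.64, 4.09 and 4.29 in dbdb mice and 5.11, 4.86 and 4.70 in dbR mice. The 3 dbdb values lay below all others, and the dbR values lay between dbdb and control with no overlap with either group. On the log2(FPKM + 0.1) scale the gene fell by 0.51 in dbdb vs. control (SE 0.10, 95% interval −0.74 to −0.29, adjusted p = 0.00501). The dbR vs. dbdb difference was 0.28 (interval 0.06 to 0.51, unadjusted p = 0.0180, adjusted p = 0.185), which did not pass. dbR vs. control gave −0.23 (adjusted p = 0.128). With mitochondrial transcripts left out the dbdb vs. control difference was −0.36 with an adjusted p of 0.0625, no longer called, while relative to the median of all genes it was −0.51 under both scalings. Macrophages are a known source of Tgfb1. The summed FPKM of 5 macrophage markers (Adgre1, Cd68, Csf1r, C1qa, C1qb) ranged from 40.3 to 47.9 in control mice, 19.8 to 34.9 in dbdb mice and 28.2 to 37.2 in dbR mice. Of these markers 3 were downregulated in dbdb vs. control (13.4% of all genes were), none was called in dbR vs. dbdb and none was near 0. Their part in the Tgfb1 difference was not tested.

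The other 2 ligand genes were near the bottom of the measured range. Tgfb2 (ENSMUSG00000039239, chromosome 1, 186622792 to 186705989, minus strand), the ligand of developing epithelia and the eye, was at 0.568, 0.433 and 0.364 FPKM in control mice, 0.409, 0.272 and 0.337 in dbdb mice and 0.555, 0.700 and 0.494 in dbR mice. Every dbR value lay above every dbdb value, and the control values overlapped both groups. The dbR vs. dbdb difference was the largest of the 9 genes at 0.64 (SE 0.21, interval 0.16 to 1.12, unadjusted p = 0.0138) but had an adjusted p of 0.170. dbdb vs. control gave −0.33 (interval −0.81 to 0.14, adjusted p = 0.281). On the leading transcript Tgfb2-201 (81.5% of the gene sum) the dbR values, 0.555, 0.323 and 0.360, overlapped the dbdb values, 0.382, 0.272 and 0.298. Its dbR vs. dbdb difference was 0.28 (limma over transcripts, adjusted p = 0.826). The rest of the gene sum was Tgfb2-206, at 0.0269, 5.72e-07 and 0.0382 FPKM in dbdb mice and 1.69e-05, 0.377 and 0.134 in dbR mice. Tgfb2-206 rests on an estimated 0 to 37 fragments per library. Tgfb3 (ENSMUSG00000021253, chromosome 12, 86056745 to 86079041, minus strand), which acts in palate and lung development, was at 0.384, 0.428 and 0.386 FPKM in control mice, 0.351, 0.308 and 0.402 in dbdb mice and 0.300, 0.388 and 0.240 in dbR mice. Its groups overlapped in all 3 comparisons, with differences of −0.14, −0.16 and −0.30 and adjusted p-values of 0.633, 0.731 and 0.305. These levels rest on an estimated 37 to 89 fragments per library for Tgfb2 and 20 to 37 for Tgfb3, against 191 to 343 for Tgfb1.

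Tgfb1 and Tgfbr2 were the called genes that were lower in dbdb mice, and their promoter windows are shown to let the start sites of the ligand and of its first receptor be compared. Each window runs from 250 bases before to 50 bases after the gene start in RefSeq (GRCm38.p6), written 5′ to 3′ on the strand of the gene. Capitals mark matches, on either strand, to 4 motifs: CAGAC (bound by Smads), GGAATG (TEAD), GGGCGG (the GC box of Sp factors) and AGGTCA (the half-site of nuclear receptors such as PPARγ).
Tgfb1, chr7:25686752-25687051, plus strand: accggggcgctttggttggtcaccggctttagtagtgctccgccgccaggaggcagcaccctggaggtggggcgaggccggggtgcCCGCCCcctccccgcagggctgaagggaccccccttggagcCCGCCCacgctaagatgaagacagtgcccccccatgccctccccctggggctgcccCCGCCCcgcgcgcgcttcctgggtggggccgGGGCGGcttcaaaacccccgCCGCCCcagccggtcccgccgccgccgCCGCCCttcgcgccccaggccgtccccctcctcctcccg
Tgfbr2, chr9:116175314-116175613, minus strand: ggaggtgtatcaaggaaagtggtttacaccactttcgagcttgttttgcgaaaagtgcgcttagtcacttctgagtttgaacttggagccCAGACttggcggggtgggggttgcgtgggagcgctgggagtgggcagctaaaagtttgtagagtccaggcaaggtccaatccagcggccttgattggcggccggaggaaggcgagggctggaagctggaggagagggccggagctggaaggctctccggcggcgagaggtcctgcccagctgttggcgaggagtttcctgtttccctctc
The Tgfb1 window held 6 GC boxes and no match to the other 3 motifs, in 77.0% G and C with 30 CpG pairs. The Tgfbr2 window held 1 CAGAC and no match to the other 3 motifs, in 59.0% G and C with 15 CpG pairs. Over all 32851 promoter windows of the same length the median was 52.7% G and C, 35.7% held GGGCGG, 49.6% CAGAC, 16.3% AGGTCA and 14.7% GGAATG. A match is a description of these letters and not a binding site.

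The balance of the 2 receptor transcripts differed between control and dbdb mice. Tgfbr2 (ENSMUSG00000032440, chromosome 9, 116084293 to 116175360, minus strand), the ligand-binding type II receptor, was at 24.5, 24.2 and 24.4 FPKM in control mice, 20.1, 19.8 and 19.7 in dbdb mice and 19.0, 19.9 and 18.5 in dbR mice. The SD was 0.176 in control and 0.222 in dbdb mice, and all 6 db/db mice lay below all 3 control mice. Tgfbr2 fell by 0.30 in dbdb vs. control (SE 0.05, interval −0.41 to −0.18, adjusted p = 0.00267) and by 0.35 in dbR vs. control (SE 0.05, interval −0.47 to −0.24, adjusted p = 0.00116). In dbR vs. dbdb the difference was −0.05 with an interval of −0.17 to 0.06 (adjusted p = 0.636), so that a return of the full control-to-dbdb difference lay outside the interval. With mitochondrial transcripts left out the dbdb vs. control difference was −0.14 (adjusted p = 0.125), not called, and relative to the median of all genes it was −0.29 under both scalings.

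Tgfbr1 (ENSMUSG00000007613, chromosome 4, 47353222 to 47414931, plus strand), the signalling type I receptor, was at 18.1, 19.7 and 18.6 FPKM in control mice, 21.6, 20.9 and 22.5 in dbdb mice and 19.2, 20.8 and 17.2 in dbR mice. The dbdb libraries were the highest 3 of the 9, with no overlap with either other group. The dbdb vs. control difference was 0.20 (interval 0.04 to 0.37, unadjusted p = 0.0224, adjusted p = 0.0723) and that of dbR vs. dbdb −0.19 (interval −0.35 to −0.02, unadjusted p = 0.0324, adjusted p = 0.238), and neither was called. dbR vs. control gave 0.02 (interval −0.15 to 0.18, adjusted p = 0.902). With mitochondrial transcripts left out the dbdb vs. control difference was 0.36 and passed (adjusted p = 0.0159). In this scaling Tgfbr1 was thus called and Tgfbr2 not, the opposite of the values as deposited, while the gap between the genes stayed, at 0.21 and −0.29 relative to the median of all genes.

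A ratio taken within a library does not depend on the total it is scaled to. Tgfbr1 over Tgfbr2 averaged 0.772 ± 0.039 (SD, n = 3) in control mice, 1.09 ± 0.047 in dbdb mice and 0.997 ± 0.059 in dbR mice. The ranges were 0.739 to 0.815, 1.06 to 1.15 and 0.931 to 1.05, with no overlap between any 2 groups, which for control and dbdb mice follows from the values of the genes themselves. Tgfbr2 was thus the more abundant receptor transcript in every control library and Tgfbr1 in every dbdb library. An exact permutation test of 3 against 3 libraries cannot go below p = 0.10, and none was run on the ratios. Endothelial cells carry Tgfbr2 among other cells of the cortex. The summed FPKM of 6 endothelial markers (Pecam1, Cdh5, Kdr, Emcn, Tek, Ehd3) was 110 to 119 in control mice, 84.4 to 90.2 in dbdb mice and 116 to 135 in dbR mice, with 4 markers downregulated in dbdb vs. control (13.4% of all genes were) and 3 upregulated in dbR vs. dbdb (0.743% of all genes were called). No endothelial marker was near 0. In dbR mice the sum of these markers overlapped or exceeded control while Tgfbr2 lay below every control library, and the part of these cells in the Tgfbr2 difference was not tested.

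**Figure D2:**
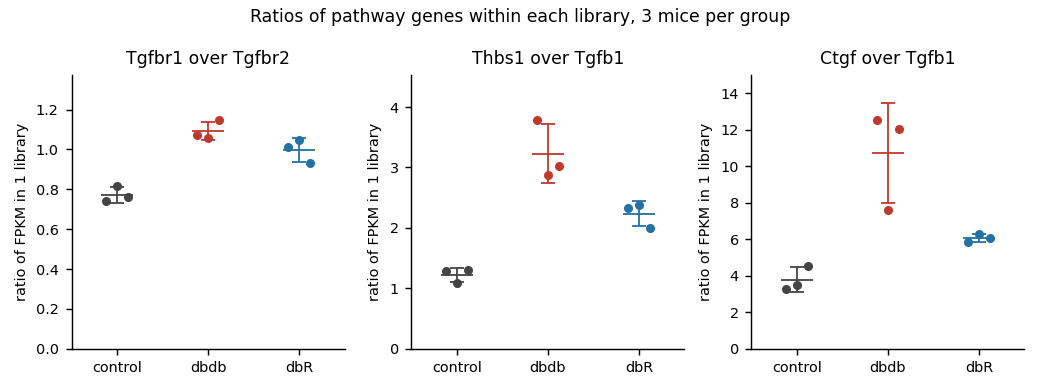
Ratio of the FPKM of 2 genes within each library (vertical axis, from 0) for Tgfbr1 over Tgfbr2, Thbs1 over Tgfb1 and Ctgf over Tgfb1. Points are single mice, bars the mean and whiskers the SD (n = 3), and no 2 groups overlap, which for Ctgf over Tgfb1 follows from the values of the 2 genes themselves.

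Neither Smad gene was called in any comparison. Smad3 (ENSMUSG00000032402, chromosome 9, 63646767 to 63757994, minus strand), the transducer through which TGF-β drives collagen genes, was at 8.93, 9.57 and 7.77 FPKM in control mice, 9.74, 9.63 and 7.97 in dbdb mice and 9.71, 9.87 and 11.0 in dbR mice. Control and dbdb mice overlapped (0.06, interval −0.18 to 0.29, adjusted p = 0.725). The 3 dbR values lay above the 3 control values by 0.22 (interval −0.01 to 0.45, adjusted p = 0.157), which was not called, and dbR vs. dbdb gave 0.16 (adjusted p = 0.457).

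Smad7 (ENSMUSG00000025880, chromosome 18, 75367529 to 75395935, plus strand), the feedback inhibitor, was at 10.4, 12.8 and 9.42 FPKM in control mice, 8.09, 11.9 and 10.2 in dbdb mice and 12.3, 16.9 and 11.6 in dbR mice. The groups overlapped in every comparison, and the second dbR mouse was the highest library. The dbdb vs. control difference was −0.12 (interval −0.51 to 0.28, adjusted p = 0.662) and that of dbR vs. dbdb was 0.43 (SE 0.18, interval 0.03 to 0.82, unadjusted p = 0.0358, adjusted p = 0.248). dbR vs. control gave 0.31 (interval −0.08 to 0.70, adjusted p = 0.233). Split by transcript, the full-length Smad7-201 (4278 bases) was at 8.94, 9.60 and 7.65 FPKM in control mice, 8.09, 10.5 and 9.50 in dbdb mice and 8.95, 10.9 and 8.56 in dbR mice, a dbR vs. dbdb difference of 0.02 (adjusted p = 0.982). The short Smad7-204 (769 bases) was at 1.45, 3.22 and 1.78 FPKM in control mice, 3.98e-05, 1.40 and 0.576 in dbdb mice and 3.15, 5.97 and 2.90 in dbR mice. Its group mean was 19.8%, 6.55% and 29.5% of the group mean of the gene sum in control, dbdb and dbR mice. The gap between dbR and dbdb mice in the Smad7 sum thus lay in this short transcript, whose FPKM rest on an estimated 0 to 96 fragments per library and which was not called itself (adjusted p = 0.265).

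One lncRNA lay within 100 kb of any of the 9 genes among the 361 assembled lncRNA genes and the 39 annotated lncRNA genes that could be placed (1633 annotated lncRNA genes without coordinates were not searched). LNC_000239, assembled by the authors, spans 75358645 to 75364243 of chromosome 18 (minus strand), 3286 bases upstream of Smad7 and on the opposite strand. It averaged 0.607 ± 0.0676 FPKM in control mice, 0.730 ± 0.111 in dbdb mice and 0.714 ± 0.135 in dbR mice (SD, n = 3). In a joint fit of mRNA and lncRNA genes its differences were 0.23, −0.03 and 0.19 in dbdb vs. control, dbR vs. dbdb and dbR vs. control, with adjusted p-values of 0.426, 0.958 and 0.511.

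Ctgf and Thbs1 carried the largest differences of the 9 genes in dbdb vs. control. Ctgf (listed as Ccn2 in GENCODE, ENSMUSG00000019997, chromosome 10, 24595442 to 24598683, plus strand) encodes a secreted matricellular protein that promotes matrix production in mesangial and tubular cells. It was at 18.7, 22.4 and 23.7 FPKM in control mice, 45.6, 31.1 and 51.8 in dbdb mice and 29.9, 30.6 and 28.6 in dbR mice. The 3 groups did not overlap in the gene sum, and the dbdb mice were far apart while the dbR mice lay close together, with coefficients of variation of 24.8% and 3.46%. Ctgf rose by 0.96 in dbdb vs. control (SE 0.16, interval 0.60 to 1.32, adjusted p = 0.00230), a fold of 1.94.

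The Ctgf difference in dbR vs. dbdb was −0.50 (SE 0.16, interval −0.86 to −0.13, fold 0.709), with an unadjusted p of 0.0121 and an adjusted p of 0.163. The second dbdb mouse, at 31.1 FPKM, was just above the highest dbR mouse, at 30.6. Without that mouse the difference was −0.71 and was called (adjusted p = 0.0455). dbR vs. control gave 0.46 (interval 0.10 to 0.82, fold 1.38), with an unadjusted p of 0.0172 and an adjusted p of 0.0636, and this comparison passed with mitochondrial transcripts left out (0.56, adjusted p = 0.0339). The leading transcript Ccn2-201 (2398 bases, 80.6% of the gene sum) was at 16.5, 15.4 and 16.4 FPKM in control mice, 35.0, 22.3 and 45.7 in dbdb mice and 24.1, 27.2 and 24.9 in dbR mice. It rose by 1.03 in dbdb vs. control (adjusted p = 0.0206), and the second dbdb mouse lay below all 3 dbR mice on this transcript.

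Thbs1 (ENSMUSG00000040152, chromosome 2, 118111876 to 118127133, plus strand), an activator of latent TGF-β and an inhibitor of angiogenesis, was at 7.24, 7.02 and 6.74 FPKM in control mice, 13.8, 11.8 and 13.0 in dbdb mice and 11.9, 11.5 and 9.37 in dbR mice. All 6 db/db mice lay above all 3 control mice, and the highest dbR mouse was just above the lowest dbdb mouse. Thbs1 rose by 0.86 in dbdb vs. control (SE 0.10, interval 0.64 to 1.08, adjusted p = 0.000255) and by 0.63 in dbR vs. control (SE 0.10, interval 0.41 to 0.85, adjusted p = 0.00161), folds of 1.82 and 1.55. The dbR vs. dbdb difference was −0.23 (interval −0.45 to −0.01, fold 0.850, unadjusted p = 0.0393, adjusted p = 0.258). Both calls of Thbs1 and the dbdb vs. control call of Ctgf held under all 22 alternatives tried.

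Thbs1 over Tgfb1 averaged 1.22 ± 0.116 in control mice, 3.23 ± 0.483 in dbdb mice and 2.23 ± 0.207 in dbR mice (SD, n = 3), with ranges of 1.09 to 1.30, 2.88 to 3.78 and 1.99 to 2.37. Ctgf over Tgfb1 averaged 3.78 ± 0.679, 10.7 ± 2.72 and 6.07 ± 0.226, with ranges of 3.30 to 4.56, 7.61 to 12.5 and 5.84 to 6.29. These ratios are a description, since Tgfb1 and Ctgf each separated the 3 groups already, in opposite order, so that the groups of their ratio could not overlap. Ctgf over Thbs1 was 3.09, 3.31 and 2.73 on average and Smad7 over Smad3 was 1.24, 1.12 and 1.34, and these groups overlapped.

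Markers of some nephron segments were higher in db/db mice. The summed FPKM of 3 distal convoluted tubule markers was 156 to 176 in control mice, 287 to 314 in dbdb mice and 320 to 359 in dbR mice, with 3 of 3 upregulated in both comparisons with control, against upregulated shares of 13.1% and 12.3% of all genes. That of 5 collecting duct markers was 92.1 to 112, 137 to 226 and 148 to 168, with 4 of 5 upregulated in both. Of these 5, Atp6v1g3 was also upregulated in dbR vs. dbdb (0.52, limma, adjusted p = 0.0251), where 0.743% of all genes were called. For podocytes, which also make Ctgf, the sum of 5 markers was 73.4 to 83.8, 86.0 to 92.3 and 79.4 to 96.6, with Nphs1 and Podxl upregulated in both comparisons with control. Of the 6 proximal tubule markers, with overlapping sums of 2494 to 2795, 2519 to 3160 and 2769 to 2878, Slc5a2 and Slc5a12 were upregulated and Slc22a6 downregulated in dbdb vs. control. That of 3 thick ascending limb markers was 322 to 424, 314 to 510 and 375 to 441, with none called in dbdb vs. control and 2 of 3 upregulated in dbR vs. control. The sum of 4 markers of mesangium and pericytes, cells that make Ctgf and Thbs1, was 20.9 to 23.8, 22.2 to 33.4 and 27.9 to 36.9, with Gata3 upregulated in dbdb vs. control, Pdgfrb in dbR vs. dbdb and both in dbR vs. control. Platelets are rich in Thbs1 and Tgfb1, and the sum of 5 platelet markers was 1.31 to 3.78, 0.740 to 1.50 and 1.40 to 1.82 FPKM, with Gp1bb and Gp9 under 0.1 and none called. For adipocytes the sum of 5 markers, nearly all of it Fabp4, was 32.8 to 44.3, 21.9 to 33.0 and 43.4 to 46.5. Cfd and Fabp4 were downregulated in dbdb vs. control, Fabp4 upregulated in dbR vs. dbdb and Cfd downregulated in dbR vs. control. Over the 9 libraries Adipoq, Cfd and Cidec averaged 0.126, 0.409 and 0.132 FPKM, with Plin1 under 0.1. Adipoq was at 0 in all 3 dbdb libraries, so that the sum gives the level of Fabp4 and not of the list. The part of these cell types in the values of Ctgf, Thbs1, Tgfb1 and Cd36 was not tested.

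**Figure D3:**
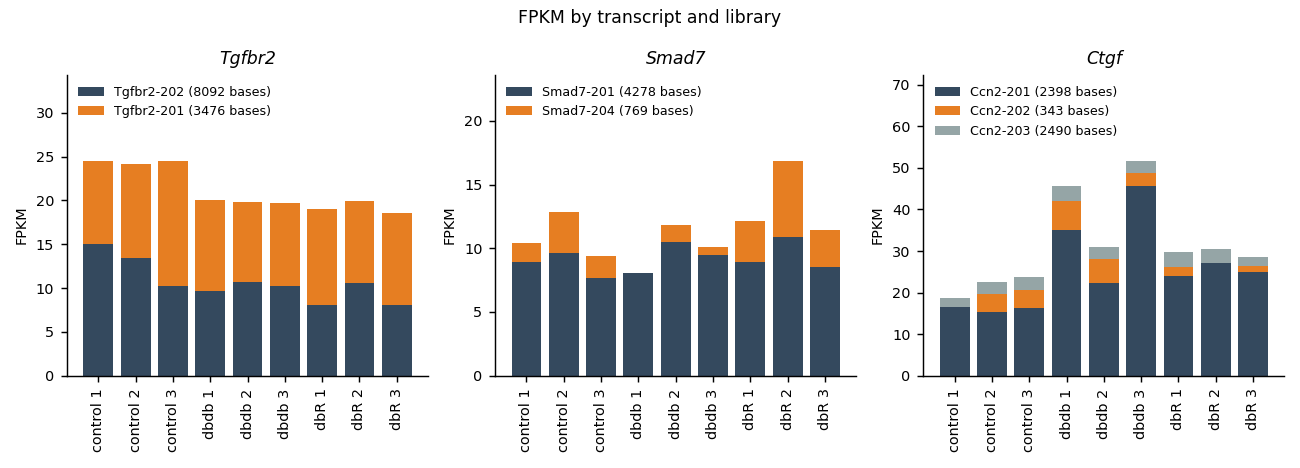
FPKM of each transcript (stacked, vertical axis from 0) of Tgfbr2, Smad7 and Ctgf in each of the 9 libraries. The 2 Tgfbr2 transcripts trade places between libraries while their sum stays between 24.2 and 24.5 in control mice, Smad7-201 makes up most of each Smad7 bar while the short Smad7-204 differs most between dbR and dbdb mice, and Ccn2-201 makes up most of Ctgf.

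The transcript split is a model estimate and was less stable than the gene sum for Tgfbr2. Tgfbr2-202 (8092 bases) was at 15.0, 13.4 and 10.2 FPKM in control mice, 9.69, 10.7 and 10.3 in dbdb mice and 8.03, 10.6 and 8.12 in dbR mice. Tgfbr2-201 (3476 bases) was at 9.49, 10.8 and 14.3, then 10.4, 9.04 and 9.40, and 10.9, 9.26 and 10.4 in the same order. Among control mice one transcript was high where the other was low, and neither was called in dbdb vs. control on its own (adjusted p = 0.265 and 0.358), whereas their sum was.

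**Figure D4:**
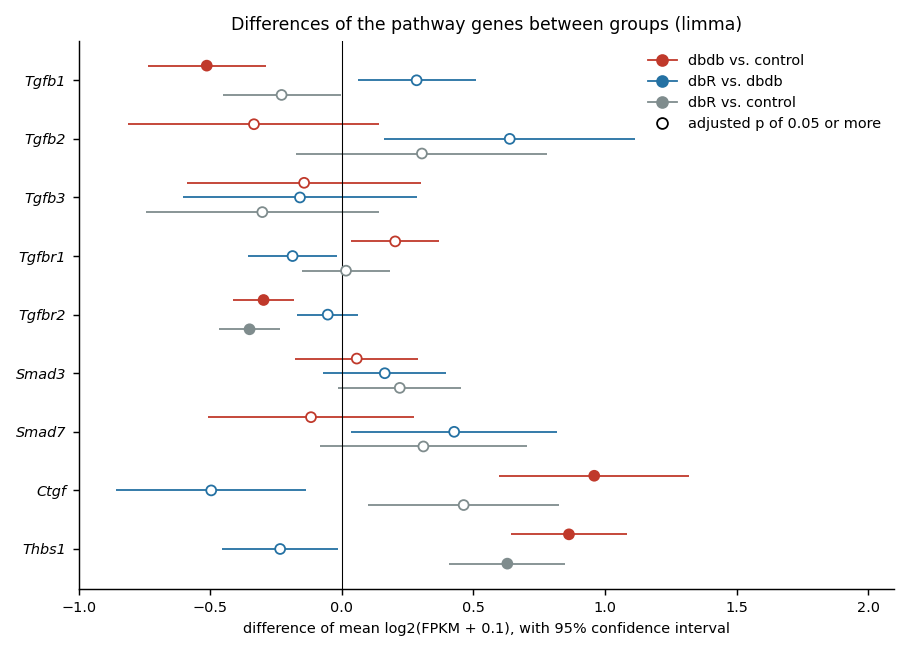
Difference of mean log2(FPKM + 0.1) (horizontal axis) for the 9 genes in dbdb vs. control, dbR vs. dbdb and dbR vs. control, with 95% confidence intervals from limma. Filled points have an adjusted p under 0.05: 4 in dbdb vs. control, none in dbR vs. dbdb and 2 in dbR vs. control.

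Per length, the order of levels in control mice ran from Tgfbr2 (24.4 ± 0.176 FPKM), Ctgf (21.6 ± 2.61) and Tgfbr1 (18.8 ± 0.819) through Smad7 (10.9 ± 1.75), Smad3 (8.76 ± 0.912), Thbs1 (7.00 ± 0.248) and Tgfb1 (5.77 ± 0.633) to Tgfb2 (0.455 ± 0.104) and Tgfb3 (0.400 ± 0.0248). Ctgf overlapped Tgfbr1 in range, Smad7 overlapped Smad3 and Tgfb2 overlapped Tgfb3, so that their order is not beyond the spread. In dbdb mice Ctgf led at 42.8 ± 10.6 FPKM, Thbs1 (12.8 ± 1.01) had a higher mean than both Smad genes while overlapping Smad7, and Tgfbr1 (21.7 ± 0.809) stood above Tgfbr2 (19.8 ± 0.222). In dbR mice Ctgf (29.7 ± 1.03) still led, while Tgfbr1 (19.1 ± 1.79) and Tgfbr2 (19.1 ± 0.701) were level. Among all tested genes the 9 ranged from the 10.1th percentile of mean FPKM for Tgfb3 to the 83.4th for Ctgf.

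Over the 9 libraries, Pearson's r of log2(FPKM + 0.1) described which of the 11615 genes with a mean of at least 1 FPKM were most like each of the 9. These r hold the group differences that many genes share, so r of the deviations from the group means follows in parentheses. The gene most like Tgfb1 was Nrros at 0.981 (0.943), which encodes a protein that tethers latent TGF-β on myeloid cells, followed by Arhgap24 at 0.965 (0.800) and Ifi203 at 0.960 (0.796). Ctgf was closest to Cttnbp2 at 0.975 (0.881), Pappa at 0.947 (0.824) and Gem at 0.942 (0.940). Thbs1 was closest to Qsox1 at 0.982 (0.748), Tmtc1 at 0.978 (0.733) and Acvr1b at 0.973 (0.628), the last a type I receptor of activins. For Tgfbr2 these were Slc12a2 at 0.993 (0.708), Ccdc122 at 0.988 (0.896) and Gfm2 at 0.986 (0.612), and for Tgfbr1 Ndufaf7 at 0.976 (0.963), Tagap1 at 0.937 (0.883) and Bicd2 at 0.932 (0.821). Smad7 was closest to Tsr2 at 0.933 (0.898), Id1 at 0.906 (0.855) and Mapre1 at 0.896 (0.863), where Id1 is a target of the related BMP pathway. Smad3 was closest to Dpys at 0.973 (0.957), Mettl15 at 0.948 (0.924) and Hook3 at 0.940 (0.954). For the sparse Tgfb2 and Tgfb3 the highest were Fli1 at 0.975 (0.942), Ecm2 at 0.941 (0.846) and Pik3c2g at 0.915 (0.749), and Rb1cc1 at 0.956 (0.931), Lrrcc1 at 0.924 (0.866) and Ap5m1 at 0.889 (0.812). Among the 36 pairs of the 9 genes, Ctgf and Thbs1 had r = 0.87 but 0.37 within groups, and Tgfb1 and Thbs1 −0.81 but 0.13 within groups.

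The rest of the pathway was covered by 112 other genes in 9 lists, of which 106 were tested. In dbdb vs. control 29 were called, 18 upregulated and 11 downregulated, or 27.4% against 26.4% of all genes. When mitochondrial transcripts were left out of the total 40 were called, 32 upregulated and 8 downregulated, or 37.7% against 30.7% of all genes, so that both the count and its split depend on the scaling. In dbR vs. dbdb 6 were called, 5 upregulated and 1 downregulated, or 5.66% against 0.743% of all genes. In dbR vs. control 32 were called, 24 upregulated and 8 downregulated, or 30.2% against 24.1%, and with mitochondrial transcripts left out 36, 29 upregulated and 7 downregulated, or 34.0% against 23.5%. The 6 calls of dbR vs. dbdb were all lost without the second dbdb mouse, without the second dbR mouse and without the third dbR mouse. With mitochondrial transcripts left out 3 genes were called in dbR vs. dbdb (2.83% against 0.737% of all genes), 1 upregulated and 2 downregulated, of which 2, Zeb2 and Cdkn1a, were among the 6. Over 22 alternatives, the dbR vs. dbdb calls held in 14 for Zeb2 and Cdkn1a, 9 for Lrrc32 and 8 for Fbn1, Bgn and Col6a1. The dbdb vs. control calls held in 19 for Eng, 18 for Acvrl1 and Tab1, 17 for Smad6 and 16 for Emilin1 and Bhlhe40. Among the dbR vs. control calls those of Tgfbr3, Acvrl1 and Bambi held in 19, 18 and 16, and that of Snai1 in 15 of 21.

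**Figure D5:**
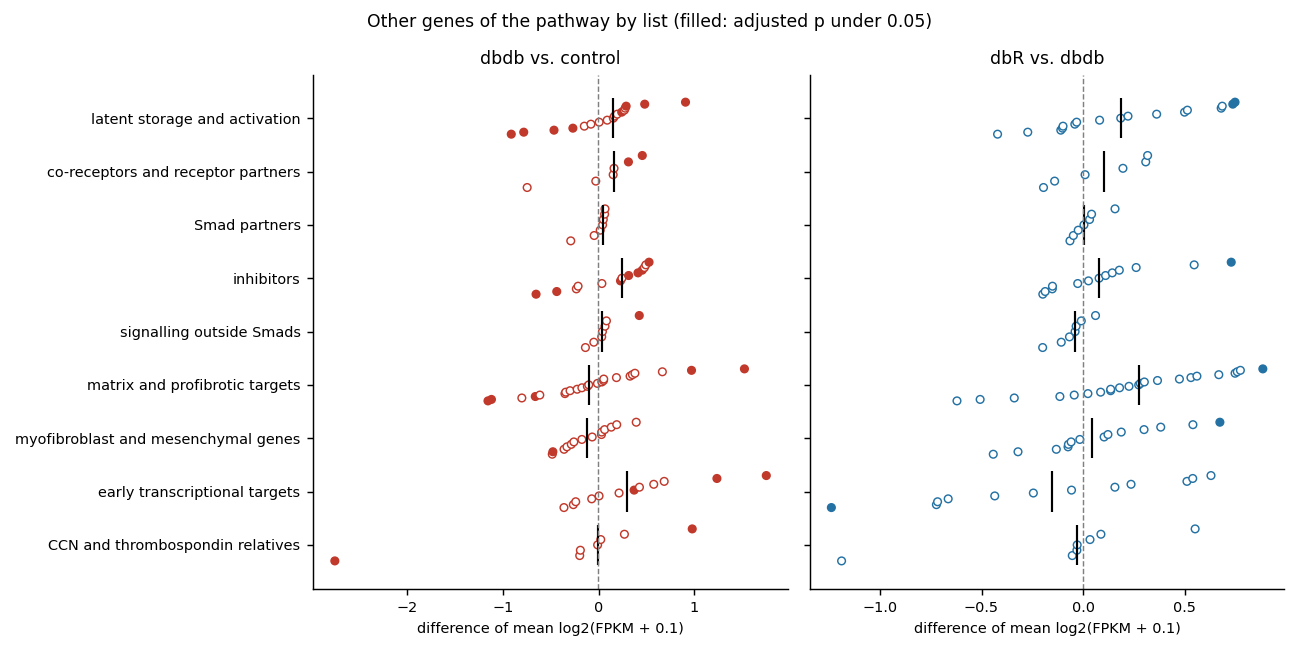
Difference of mean log2(FPKM + 0.1) (horizontal axes) of the 106 other pathway genes tested, by list, in dbdb vs. control (left) and dbR vs. dbdb (right). Each circle is a gene, filled where the adjusted p was under 0.05, and black bars are list medians, which lie between −0.12 and 0.29 on the left and between −0.15 and 0.27 on the right.

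Among 17 tested genes for the storage and activation of latent ligand, 4 were upregulated and 4 downregulated in dbdb vs. control (median 0.15), or 47.1% against 26.4% of all genes called. Itgb6, the epithelial integrin chain that activates latent ligand, fell from 37.3 ± 1.79 FPKM in control to 19.8 ± 2.46 in dbdb mice (−0.91, adjusted p = 0.000130) and was at 16.3 ± 0.933 in dbR mice. Emilin1, an elastic fibre protein that limits ligand processing, was at 4.43 ± 0.0495, 6.32 ± 1.38 and 10.1 ± 0.830 FPKM, upregulated by 0.48 in dbdb vs. control (adjusted p = 0.0255) and by 1.16 in dbR vs. control (adjusted p = 0.000314). Itgb1, the integrin chain with the highest level of the list, fell from 94.5 ± 4.45 to 78.4 ± 2.96 FPKM (−0.27, adjusted p = 0.0137), a call lost with mitochondrial transcripts left out. 2 genes of the list (11.8%, against 0.743% of all genes) were upregulated in dbR vs. dbdb and none downregulated (median 0.19). These were Lrrc32, which docks latent ligand on cell surfaces, from 3.40 ± 0.332 to 5.75 ± 0.789 FPKM (0.74, adjusted p = 0.0479), and the microfibril gene Fbn1, from 2.07 ± 0.210 to 3.56 ± 0.455 (0.75, adjusted p = 0.0426). In dbR vs. control 7 were upregulated and 2 downregulated (median 0.20), or 52.9% against 24.1% of all genes.

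Of 6 co-receptors and receptor partners, 2 were upregulated in dbdb vs. control, none in dbR vs. dbdb and 3 in dbR vs. control, against 26.4%, 0.743% and 24.1% of all genes called. Eng, the endothelial co-receptor endoglin, was at 21.6 ± 2.61, 26.8 ± 0.447 and 33.4 ± 1.40 FPKM, a rise of 0.31 in dbdb vs. control (adjusted p = 0.0203) and of 0.63 in dbR vs. control (adjusted p = 0.000627). Acvrl1, the endothelial type I receptor ALK1, rose by 0.46 (adjusted p = 0.0251) and 0.47 (adjusted p = 0.0247) in the same comparisons. Tgfbr3, the co-receptor betaglycan, rose by 0.35 in dbR vs. control (adjusted p = 0.0166), and Dab2, an endocytic adaptor with the highest level of the list at 306 ± 37.5 FPKM in control mice, was not called. None of 7 Smad partners was called in any comparison (limma), and 1 of them, Smad2, had an unadjusted p under 0.05, in dbdb vs. control (named after its values were seen). Smad4, the common partner, was at 18.4 ± 0.827, 18.6 ± 0.892 and 19.1 ± 0.375 FPKM.

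Of 13 inhibitors 5 were upregulated and 2 downregulated in dbdb vs. control (median 0.24), and 4 and 2 in dbR vs. control (median 0.26), or 53.8% and 46.2% against 26.4% and 24.1% of all genes called. Wwp1, a ubiquitin ligase that acts with Smad7, fell from 79.4 ± 2.46 to 50.4 ± 1.66 FPKM (−0.65, adjusted p = 0.000153) and was at 53.3 ± 4.61 in dbR mice. Smad6, the inhibitory Smad of the BMP branch, rose from 2.15 ± 0.237 to 3.00 ± 0.412 FPKM (0.46, adjusted p = 0.0262) and was at 3.39 ± 0.295 in dbR mice. The proteoglycan gene Bgn, whose product binds TGF-β, was at 24.7 ± 2.12, 33.1 ± 5.60 and 54.7 ± 7.25 FPKM and was upregulated in all 3 comparisons (0.41, 0.73 and 1.14, adjusted p = 0.0370, 0.0389 and 0.000249), calls that held in 15, 8 and 22 of 22 alternatives. The decoy receptor Bambi rose by 0.64 in dbR vs. control (adjusted p = 0.0232), and its dbdb vs. control difference was 0.49 (adjusted p = 0.0584). Of 7 genes for signalling outside Smads 1 was called (14.3% in dbdb vs. control, against 26.4% of all genes), Tab1, an activator of the kinase TAK1, which rose by 0.42 in dbdb vs. control (adjusted p = 0.0234). Rhoa, the most abundant of that list, was at 146, 133 and 139 FPKM and not called.

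Of 23 matrix and profibrotic target genes 2 were upregulated, 3 downregulated and 18 not called in dbdb vs. control (median −0.10), a share of 21.7% called against 26.4% of all genes. Spp1, the cytokine and matrix protein osteopontin, rose from 379 ± 42.8 to 1098 ± 204 FPKM (1.52, adjusted p = 6.42e-05) and was at 860 ± 62.9 in dbR mice. The interstitial collagen gene Col3a1 fell from 7.11 ± 2.41 to 3.13 ± 1.06 FPKM (−1.16, adjusted p = 0.00868) and was at 5.23 ± 0.794 in dbR mice. The first control library was the highest for Col3a1, and without it the difference was −0.90 (adjusted p = 0.0245). Postn, a matricellular gene of injured kidney, averaged 0.667, 0.217 and 0.368 FPKM, with a call in dbdb vs. control (−1.12, adjusted p = 0.0475) that held in 6 of 21 alternatives and was lost without the first control library (−0.71, adjusted p = 0.135). Col6a1, a chain of collagen VI, was the 1 gene called in dbR vs. dbdb (4.35% of the list, against 0.743% of all genes). It went from 4.33 ± 0.656 to 8.08 ± 1.24 FPKM (0.89, adjusted p = 0.0433), and the median of the list was 0.27. In dbR vs. control 7 were upregulated and 2 downregulated (median 0.21), or 39.1% against 24.1% of all genes. The summed FPKM of 5 fibroblast markers was 11.5 to 18.9 in control mice, 11.5 to 17.6 in dbdb mice and 20.4 to 25.5 in dbR mice, with 1 upregulated in dbR vs. control and none called otherwise. Its Col1a1 and Col1a2 are also in the matrix list, and the part of these cells was not tested.

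Of 14 myofibroblast and mesenchymal genes 1 was called in each comparison, against 26.4%, 0.743% and 24.1% of all genes in dbdb vs. control, dbR vs. dbdb and dbR vs. control. Zeb2, a transcription factor of mesenchymal, endothelial and myeloid cells, fell from 27.8 ± 0.990 to 20.0 ± 1.44 FPKM in dbdb mice (−0.48, adjusted p = 0.00616) and was at 32.1 ± 4.73 in dbR mice, a rise of 0.67 in dbR vs. dbdb (adjusted p = 0.0251). Snai1, a repressor of epithelial genes, rose by 0.57 in dbR vs. control (adjusted p = 0.0348), and Cdh1, the epithelial cadherin and most abundant gene of the list, was at 31.3, 34.3 and 32.6 FPKM and not called. The sum of 5 smooth muscle markers was 33.7 to 52.9, 36.5 to 43.1 and 35.4 to 41.2, the highest being the first control library. Smtn was the only one called, upregulated in dbdb vs. control (0.23, adjusted p = 0.0202) and dbR vs. control (0.23, adjusted p = 0.0243). Of all genes 13.1% and 12.3% were upregulated there.

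Of 12 early transcriptional targets 3 were upregulated in dbdb vs. control and none downregulated (median 0.29), a share of 25.0% called against 26.4% of all genes, and the median was −0.15 in dbR vs. dbdb. Cdkn1a, the cell cycle inhibitor p21, was at 1.42, 1.52 and 1.07 FPKM in control mice, 3.46, 4.85 and 6.14 in dbdb mice and 1.93, 1.82 and 2.04 in dbR mice. The 3 groups did not overlap, with a rise of 1.75 in dbdb vs. control (adjusted p = 0.000228) and a fall in dbR vs. dbdb (−1.24, adjusted p = 0.0295), the only downregulated call of that comparison in the lists. Tsc22d1, a TGF-β-induced leucine zipper gene, was at 112 ± 13.7, 267 ± 55.8 and 163 ± 33.6 FPKM, a rise of 1.24 in dbdb vs. control (adjusted p = 0.000726), and its dbR vs. dbdb difference was −0.72 (adjusted p = 0.0767). Bhlhe40, a transcriptional repressor, rose by 0.37 in dbdb vs. control (adjusted p = 0.0282) and by 0.53 in dbR vs. control (adjusted p = 0.00591). Id2 was the most abundant of the list at 287, 221 and 262 FPKM and was not called.

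Among 7 CCN and thrombospondin relatives 2 passed for dbdb vs. control, while 3 passed for dbR vs. control, or 28.6% and 42.9% against 26.4% and 24.1% of all genes. Cyr61, the CCN family member that shares YAP control with Ctgf, was at 10.5, 15.2 and 10.8 FPKM in control mice, 17.1, 12.9 and 13.8 in dbdb mice and 4.07, 8.37 and 7.28 in dbR mice. Its dbdb values overlapped control (0.27, adjusted p = 0.455), and its dbR values lay below every other library. Cyr61 fell by 0.92 in dbR vs. control (adjusted p = 0.0225), with −1.19 in dbR vs. dbdb (adjusted p = 0.0568). Thbs4, a thrombospondin of heart and tendon, was called up in both comparisons with control (0.98 and 0.95, adjusted p = 0.0321 and 0.0386) at 0.121, 0.334 and 0.318 FPKM, calls that held in 17 and 12 of 21 alternatives. Cd36, a thrombospondin receptor and fatty acid transporter, fell from 255 ± 81.6 FPKM in control to 36.7 ± 4.32 in dbdb and 37.7 ± 6.13 in dbR mice (−2.76 and −2.72, adjusted p = 1.84e-05 and 2.75e-05).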

How the data were processed

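Renal cortex RNA of 9 mice (3 per group) was depleted of ribosomal RNA and sequenced as stranded libraries of paired reads. Per the submitters' processing notes and methods, the authors aligned reads to GRCm38.p2 with TopHat2 2.0.9 and deposited transcript FPKM from Cufflinks 2.1.1 in separate mRNA, annotated lncRNA and assembled lncRNA tables per mouse. FPKM are scaled to mapped fragments. Transcript FPKM were summed per gene ID here, as in the study. limma 3.58.1 (R 4.3.3) was fitted to log2(FPKM + 0.1) of the 14537 mRNA genes with a mean of at least 0.1 FPKM, with 1 model of 3 groups and a variance trend. P-values were two-sided and Benjamini-Hochberg adjusted over all tested genes, with calls at an adjusted p under 0.05 and no fold minimum. Fold changes on this scale understate those of low genes. The test was checked on simulated data.

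The depth was estimated from steps in the FPKM of 434 to 496 single-transcript genes per library, of which 90.7% to 93.8% came within 0.1 of whole fragments. It is an estimate, so no count test was run. Gene positions are from GENCODE on GRCm38, the same assembly as the files, and promoters from RefSeq. All 9 symbols were matched in the mRNA tables, and promoter windows of Ctgf and Thbs1 are not shown. Ltbp4 has 2 gene IDs, of which the one with the higher level was used. The members, gene lists and marker lists were chosen with earlier results of these data known, and no test was run on a list. Named were the 9 genes, up to 4 called genes per list with the largest difference, the gene of each list with the highest level, and the 3 genes most like each of the 9. Markers are named by list. P-values measure the spread between mice within groups, estimated once per gene over all 9 libraries and moderated across genes. The spread of the third group thus enters each comparison. Alternatives changed the pseudocount, filter, scaling, variance model, libraries, transcript choice and features, and a median ratio scaling was added after the data were seen.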

Additional observations from a re-analysis of the deposited data

How the results depend on the processing

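Over 22 alternatives the number of the 9 genes called was 3 to 5 in dbdb vs. control (4 as reported), 0 to 1 in dbR vs. dbdb (0) and 2 to 3 in dbR vs. control (2). Leaving out 1 library gave 4 to 5, 0 to 1 and 2 to 3. The 1 call in dbR vs. dbdb was Ctgf without dbdb replicate 2.

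With mitochondrial transcripts left out, Tgfb1 (−0.36, adjusted p = 0.0625) and Tgfbr2 (−0.14, adjusted p = 0.125) were no longer called in dbdb vs. control and Tgfbr1 was. On its leading transcript alone Tgfbr2 was not called either (−0.31, adjusted p = 0.165). Tgfbr1 also passed, just under the threshold, without dbR replicate 3. Over all alternatives the adjusted p in dbdb vs. control ran from 0.00244 to 0.0625 for Tgfb1, 0.00205 to 0.165 for Tgfbr2 and 0.0159 to 0.179 for Tgfbr1, and that of Ctgf from 0.0455 to 0.405 in dbR vs. dbdb and 0.00852 to 0.183 in dbR vs. control. Ctgf was called in dbR vs. control with 75th percentile scaling (0.51, adjusted p = 0.0494), with mitochondrial transcripts left out, with the 6 libraries of the comparison (adjusted p = 0.00885), without dbdb replicate 2 (adjusted p = 0.00852) and without dbdb replicate 3 (adjusted p = 0.0351). Signs turned only for uncalled values near 0. Smad3 in dbdb vs. control was −0.026 without Control replicate 3 (−0.026 to 0.150 without 1 library). Smad7 in dbdb vs. control was 0.040 with mitochondrial transcripts left out, 0.0065 without Control replicate 2, 0.030 without dbdb replicate 1 and 0.10 on its leading transcript (−0.24 to 0.030 without 1 library). Tgfbr1 in dbR vs. control was −0.01 without Control replicate 1, −0.048 without dbR replicate 2 and −0.030 on its leading transcript (−0.048 to 0.087 without 1 library).

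Of the other pathway genes 17 to 29 were called in dbdb vs. control when 1 library was left out (29 as reported), with 18 without Control replicate 2 and 17 without dbdb replicate 2, and 22 to 40 under the other alternatives, the highest with mitochondrial transcripts left out. Leaving out 1 library gave 20 to 36 in dbR vs. control (32 as reported). In dbR vs. dbdb the count of 6 became 0 with no filter, with the 6 libraries of the comparison or with no variance trend, 1 with the replicate block (none of the 6), 2 on leading transcripts or with lncRNA genes added, 3 with mitochondrial transcripts left out and 0 to 7 when 1 library was left out. None of these 6 held in every alternative, against 10 of 29 in dbdb vs. control and 16 of 32 in dbR vs. control. For all genes in dbR vs. dbdb 108 calls became 31 with no filter, 166 at a mean of at least 1 FPKM, 203 with 75th percentile scaling, 234 with quantile normalization, 164 with median ratio scaling, 22 with 6 libraries, 18 with no trend, 23 with the replicate block, 49 on leading transcripts, 66 with lncRNA genes and 2 to 141 when 1 library was left out, the lowest without dbR replicate 2. With 75th percentile scaling 62.3% of the dbR vs. control calls were upregulated. The cause was not tested.

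The methods name no pairing of the mice by replicate number. Deviations of same-numbered libraries correlated at −0.17 to 0.06, and not every library was closest to its own number. These values show no strong shift shared by same-numbered libraries but cannot exclude a pairing. With the replicate block 3345, 23 and 3030 genes were called in dbdb vs. control, dbR vs. dbdb and dbR vs. control, and 4, 0 and 2 of the 9 genes. Among the 9 genes, Tgfb2 and Tgfb3 rest on the fewest estimated fragments.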
